A study of Arabidopsis thaliana with 72 samples.

Results

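The genes described here are 10 Arabidopsis thaliana loci that encode chaperones of the cytosol, taken by locus from the 22122 loci of the deposited table. They are HSP101 (AT1G74310), HSP70-1 (AT5G02500), HSP70-2 (AT5G02490), HSP70-3 (AT3G09440), HSP70-4 (AT3G12580), HSP70-5 (AT1G16030), HSP90.1 (AT5G52640), HSP90.2 (AT5G56030), HSP90.3 (AT5G56010) and HSP90.4 (AT5G56000). All 10 were in the table and all passed the filter on low values in both organs. Shoots and roots of seedlings grown for 14 days on agar were sampled for RNA sequencing at 0 h, untreated or with 0.1% ethanol, and at 1, 3, 6, 12 and 24 h with 0.1% ethanol or with 202 µM citral. Citral, which smells of lemon, consists of geranial and neral, a pair of isomeric monoterpene aldehydes. No accession or genotype was given in the labels used here, and ethanol served as the solvent control. The 24 groups held 3 libraries each, 72 in all. The concentration and compound follow the series design and the agent labels, whereas the treatment protocol of the same samples names t-chalcone at 21 µM, and the sources used here do not settle this.

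HSP70 proteins bind exposed hydrophobic stretches of unfolded proteins and release them in cycles driven by ATP. HSP90 acts later, on nearly folded clients such as receptors and kinases, and holds heat shock factors in check in unstressed cells. HSP101, a ring-shaped disaggregase of the ClpB family, pulls proteins out of aggregates together with HSP70 and small heat shock proteins, and Arabidopsis needs it to acquire tolerance to heat. Within each family some genes are transcribed at all times (HSP70-1, HSP90.2, HSP90.3 and HSP90.4), while HSP101, HSP70-4, HSP70-5 and HSP90.1 are classical heat-inducible genes.

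Heat shock factors bind inverted repeats of the letters GAA, the heat shock element. The letters GAANNTTCNNGAA, a 3-unit element searched on both strands from 250 bases before to 50 bases after each annotated gene start, occurred in 132 of 27443 protein-coding genes (0.48%) and in 2 of the 10 chaperone genes, HSP70-3 and HSP70-4. The shorter 2-unit letters GAANNTTC or TTCNNGAA, which overlap the longer element, occurred in 5287 genes (19.27%) and in 3 of the 10, the third being HSP101. All of these matches lay just after the annotated start, at positions 34 to 46 of HSP70-3, 21 to 33 of HSP70-4 and 30 to 37 of HSP101, counted from 1 at the first transcribed base. All matches found are shown, each gene's as 30 bases of TAIR10.1 (RefSeq), 5′ to 3′ on its own minus strand, with the element in capitals:
HSP70-4, chr3:3993845-3993874: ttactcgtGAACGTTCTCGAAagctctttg
HSP70-3, chr3:2905898-2905927: aagccatcgaaccGAACATTCTCGAAcctt
HSP101, chr1:27940322-27940351: ataaaataagcGAAAATTCcacgtgacatc
No such letters were in this window for the other 7 genes. Among these, HSP90.1, HSP90.2, HSP90.3, HSP70-1 and HSP70-2 rose at 1 h in both organs, as did the genes with a match. For HSP90.1 the annotated exons span 2103 bases, all of them coding, so its annotated start is the start codon and its window holds no bases placed relative to a mapped transcript start. A match in letters is a description of the window, not of binding.

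The 3 constitutive HSP90 genes lie within one stretch of chromosome 5 and resemble each other closely. HSP90.4 spans chr5:22677338-22680152 on the minus strand, HSP90.3 chr5:22681238-22684252 and HSP90.2 chr5:22686473-22689671 on the plus strand. HSP90.1 lies at chr5:21352557-21355147. In coding sequence HSP90.2 was 95.67% identical to HSP90.3 and 94.29% to HSP90.4 over the aligned bases, but 79.56% to HSP90.1. A stretch of 60 coding bases that HSP90.2, HSP90.3 and HSP90.4 share letter for letter shows what a short read cannot assign, and capitals in HSP90.1 mark its 7 differences from the other 3 (TAIR10.1, RefSeq, coding strand):
HSP90.2, chr5:22687694-22687753: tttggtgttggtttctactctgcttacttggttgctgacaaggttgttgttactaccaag
HSP90.3, chr5:22682172-22682231: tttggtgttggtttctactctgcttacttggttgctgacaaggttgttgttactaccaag
HSP90.4, chr5:22679282-22679341: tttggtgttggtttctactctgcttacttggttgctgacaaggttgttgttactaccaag
HSP90.1, chr5:21353317-21353376: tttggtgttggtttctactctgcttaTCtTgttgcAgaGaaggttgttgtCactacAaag
Of all 50-base windows of the mRNA, 18.84% in HSP90.2, 23.87% in HSP90.3 and 18.71% in HSP90.4 also occur in another gene's mRNA. For the other 7 genes this share was at most 0.22%. The reads of HSP90.2, HSP90.3 and HSP90.4 may therefore have been split among them, and the sum of the 3 is given beside them below for citral against ethanol.

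The HSP70 genes are more distinct, with HSP70-1 and HSP70-2, neighbours on chromosome 5 (chr5:553745-556623 and chr5:550035-552827, both minus strand), 87.17% identical in coding sequence and HSP70-5 73.88% identical to HSP70-1. HSP70-3 (chr3:2902355-2905947, minus strand) overlaps AT3G09430 on the opposite strand by 863 bases, as well as a small nucleolar RNA gene. HSP101 (chr1:27936508-27940369, minus strand) overlaps AT1G74300 by 101 bases. Whether counting used strand is not given in the sources used here, so reads of such overlaps are uncertain. AT3G09430 stood at 0.128 to 4.35 CPM and AT1G74300 at 0.148 to 10.3 CPM over all libraries of 0.5 M reads or more. HSP70-4 (chr3:3991117-3993886) and HSP70-5 (chr1:5501966-5504535, which has 1 exon), both on the minus strand, overlap no annotated gene.

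Levels are given as counts per M recovered reads (M, 1e6 reads) scaled by trimmed-mean factors (CPM), as mean ± SD. Changes are log2 ratios ± SE from limma's voom fit with library weights, n = 3 libraries per group. A gene is said to have risen or fallen where its Benjamini-Hochberg adjusted p over all loci tested was under 0.05. Depth moved with the agent: the 30 citral libraries held 1.58 to 3.59 M reads, and the 42 controls had a median of 11.4 M. In 4 ethanol libraries there were under 0.5 M reads, root 0 h replicate 1, root 3 h replicate 1, shoot 12 h replicate 2 and shoot 24 h replicate 3; means leave them out and the fits keep them at low weight. The part of depth in the results was not tested. Of 4 shoot and 4 root marker genes, all 4 shoot genes and CASP1 separated the organs, while the root hair genes COBL9, PRP3 and EXPA7 had overlapping ranges. The Rubisco gene RBCS1A stood at 3050 to 13500 CPM in shoot libraries and 14.8 to 88.8 in root libraries, and the Casparian strip gene CASP1 at 0.143 to 6.2 and 35.9 to 174. The labels do not tell whether the 3 replicates of a group were grown on different plates, and every p-value therefore reflects only how far these libraries scatter, which could be technical scatter.

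A clock gene sets a limit on the hour labels. Days had 16 h light and 8 h dark, and the treatment protocol that names t-chalcone puts treatment 7 h into the light. If so, 0 h and 24 h fall at one clock time. Yet the morning gene LHY (AT1G01060) stood at 17.0 to 21.5 CPM in ethanol shoots at 0 h. At 24 h it stood at 471 and 511 and at 12 h at 771 and 910. In shoots given citral LHY stood at 44.2 to 62.6 CPM at 12 h and 56.6 to 58.9 at 24 h. In roots the ethanol libraries stood at 95.9 to 98.1 at 12 h and 54.6 to 67.0 at 24 h, against 4.03 to 6.97 and 3.90 to 7.27 with citral. At 3 h LHY stood at 30.3 to 55.5 CPM in ethanol shoots and at 5.25 to 9.19 with citral. In roots at 3 h it stood at 6.41 and 6.75 with ethanol and 2.07 to 2.18 with citral. Untreated shoots at 0 h stood at 46.2 to 59.7, above the ethanol shoots of that hour. A second morning gene, CCA1 (AT2G46830), stood at 7.60 to 9.89 CPM in ethanol shoots at 1 h and at 0.854 to 5.14 with citral. In roots at 3 h CCA1 overlapped, at 4.73 and 5.13 with ethanol and 2.96 to 5.81 with citral. LHY levels thus differed between the groups compared at 0, 3, 12 and 24 h, and CCA1 levels also at 1 h in shoots. The part of clock genes in the chaperone results was not tested at any hour.

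In untreated seedlings 9 of the 10 genes were lower in shoots than in roots, where 77% of all loci differed one way or the other. The heat-inducible HSP90.1 and HSP70-4 showed the widest gaps. HSP90.1 stood at 4.86, 3.36 and 4.98 CPM in shoots and 39.7, 66.4 and 67.0 in roots, a log2 difference of -3.59 ± 0.61 (adjusted p = 8.52e-07). HSP70-4 stood at 10.9, 10.97 and 8.55 in shoots and 93.2, 162 and 115 in roots, a difference of -3.59 ± 0.52 (adjusted p = 2.55e-08). The organs did not overlap for either gene. The difference was -2.78 ± 0.23 for HSP70-3, -2.01 ± 0.43 for HSP101, -1.69 ± 0.15 for HSP90.3, -1.48 ± 0.16 for HSP90.2, -1.30 ± 0.38 for HSP70-2, -0.68 ± 0.10 for HSP90.4 and -0.48 ± 0.08 for HSP70-1. HSP70-5 did not pass the test (-0.68 ± 0.41, adjusted p = 0.124). Whole organs were sequenced, so fewer cells of a type and less RNA per cell cannot be told apart.

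Per kilobase of exon, HSP70-1 led in both organs, at 473 ± 45.6 CPM per kb in untreated shoots and 649 ± 13.2 in untreated roots. In shoots HSP90.2 (55.6 ± 8.30) and HSP90.3 (42.3 ± 5.25) came next without overlap of their libraries, then HSP70-3 (15.2 ± 2.04) and HSP90.4 (10.7 ± 1.06). HSP70-4 stood at 4.02 ± 0.55 and its lowest library lay below the highest of HSP70-5 (3.10 ± 0.42). The libraries of HSP70-5, HSP70-2 (2.82 ± 0.66) and HSP101 (2.58 ± 0.50) overlapped each other, and those of HSP101 overlapped HSP90.1 (2.09 ± 0.43), the lowest. In roots HSP90.2 (153 ± 22.6), HSP90.3 (135 ± 15.2) and HSP70-3 (105 ± 19.3) followed with libraries that overlap from each to the next. HSP70-4 (48.9 ± 14.0) and HSP90.1 (27.4 ± 7.40) ranked above HSP90.4 (16.8 ± 0.66) and HSP101 (10.3 ± 2.47) there, and the lowest library of HSP101 lay below the highest of HSP70-2. HSP70-2 (6.70 ± 1.04) and HSP70-5 (5.22 ± 1.42) were lowest and overlapped.

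The first comparison asks whether the solvent or handling at 0 h moved these genes. In shoots 0 of the 10 differed between ethanol and untreated seedlings in limma's test, beside 22.2% of all loci, and 0 had an unadjusted p under 0.05 (limma-trend also called 0). In roots 5 rose with ethanol, beside 26.6% of all loci called either way. HSP70-1 rose by 0.39 ± 0.07 (adjusted p = 3.66e-05), HSP70-2 by 0.77 ± 0.21, HSP70-3 by 0.66 ± 0.17, HSP90.1 by 0.82 ± 0.29 and HSP101 by 0.70 ± 0.24 (adjusted p = 0.0317). HSP101 stood at 25.5, 41.5 and 37.3 CPM in untreated roots and at 54.2, 53.0 and 55.4 with ethanol, with no overlap. HSP70-4 was 0.80 ± 0.34 higher and did not pass (adjusted p = 0.0870). The libraries of HSP70-2, HSP70-3 and HSP90.1 overlapped through the shallow ethanol replicate 1. Without ethanol replicate 2, or without replicate 3, the count was 0, without untreated replicate 1 it was 3 and without untreated replicate 2 it was 8, and limma-trend called 1. The call for HSP90.1 was also lost without library weights and under quantile normalization.

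Citral raised most of the chaperone genes within the first hour in both organs. In shoots 8 of 10 rose at 1 h and 0 fell in limma's test, beside 10.7% of all loci called higher and 11.2% lower, and the median change was 1.22 against -0.0949 over all loci. At an unadjusted p under 0.05, and by limma-trend, the number that fell was also 0 in both organs at 1 h and in shoots at 3 and 6 h. In roots 9 rose and 0 fell, beside 21.7% and 21.8% of all loci, with a median of 1.42 against -0.0483. HSP90.4, one of the constitutive HSP90 genes, was the gene that did not pass in either organ (0.22 ± 0.18 in shoots and 0.19 ± 0.10 in roots), and HSP70-5 did not pass in shoots.

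**Figure D1:**
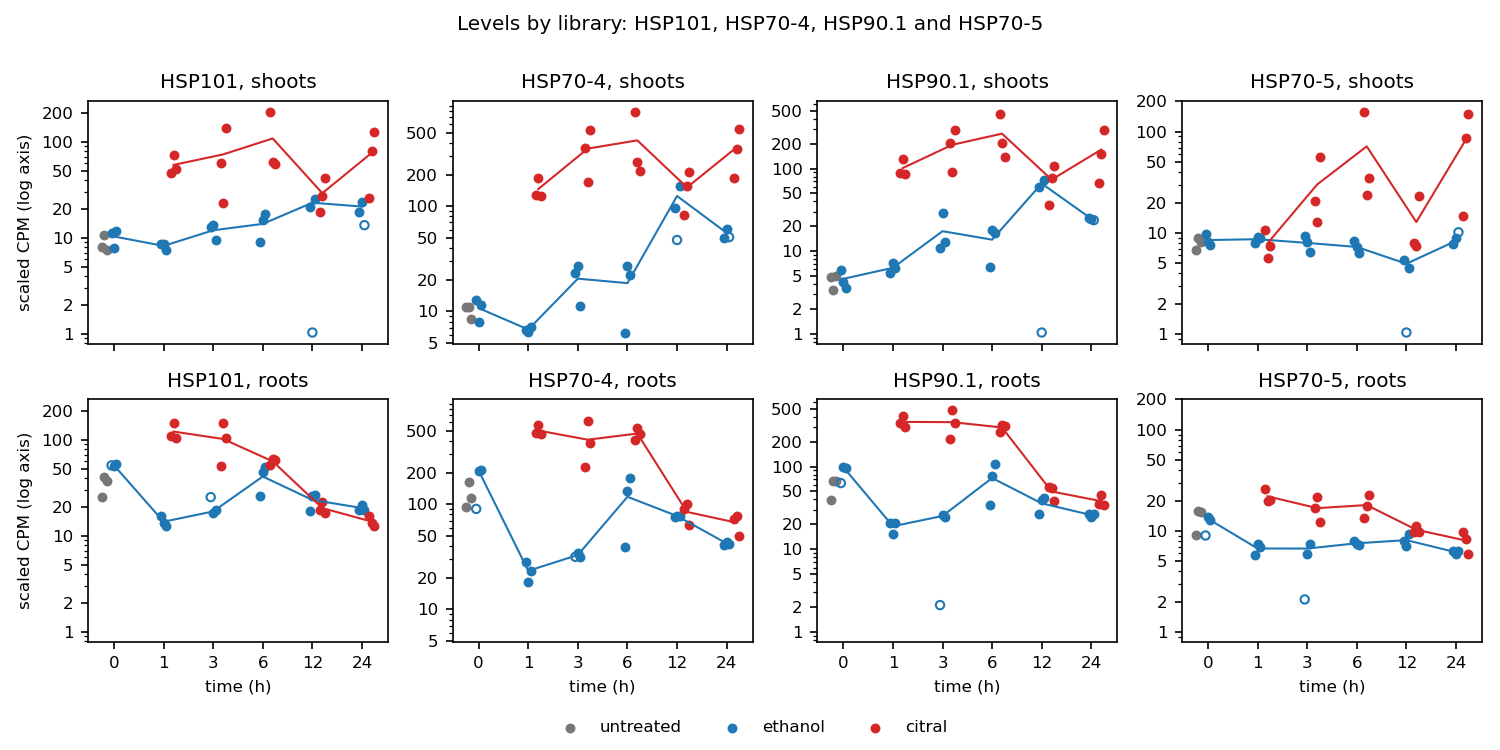
Levels of the heat-inducible HSP101, HSP70-4, HSP90.1 and HSP70-5 in every library (scaled CPM, log axis) by hour in shoots (top) and roots (bottom). Points are libraries, open points are the 4 libraries under 0.5 M reads, and lines join the means of the other libraries. HSP70-4 in shoots stood at 6.41 to 7.06 CPM with ethanol at 1 h and at 125 to 184 with citral.

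HSP70-4, HSP90.1 and HSP101 changed most at 1 h. HSP70-4, a heat-inducible HSP70, stood at 6.71, 6.41 and 7.06 CPM in ethanol shoots at 1 h and at 127, 184 and 125 with citral, a change of 4.37 ± 0.61 (20.7-fold, adjusted p = 5.20e-06). In roots it stood at 28.5, 18.4 and 23.0 with ethanol and at 473, 571 and 462 with citral, a change of 4.67 ± 0.32 (25.4-fold, adjusted p = 3.02e-12). The groups did not overlap in either organ, and the treated roots exceeded the treated shoots in every library.

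HSP90.1, the heat-inducible HSP90, went from 5.47, 7.17 and 6.24 CPM to 88.3, 131 and 85.1 in shoots (3.98 ± 0.60, adjusted p = 1.81e-05). In roots it went from 20.9, 15.4 and 20.6 to 337, 405 and 302 (4.41 ± 0.26, adjusted p = 1.18e-13). The disaggregase gene HSP101 went from 8.68, 8.64 and 7.42 to 47.6, 72.02 and 52.5 in shoots (2.73 ± 0.54, adjusted p = 0.000493). In roots it went from 16.0, 13.5 and 12.6 to 110, 151 and 104 (3.16 ± 0.22, adjusted p = 3.44e-12). Every citral library exceeded every ethanol library for both genes.

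HSP70-5, also heat-inducible, differed from these. It stood at 7.88, 9.19 and 8.96 CPM in ethanol shoots and at 10.6, 5.69 and 7.42 with citral, groups that overlap, with a change of -0.10 and a 95% interval of -1.90 to 1.69. The citral values rest on 18.4 to 33.7 reads. In roots it rose from 5.83, 7.37 and 6.94 to 26.0, 19.9 and 20.3 (1.61 ± 0.18, adjusted p = 1.77e-09), again without overlap. The interval in shoots is wide, and the difference between the organs was -1.72 ± 0.77 with an adjusted p of 0.127.

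HSP70-3, which is expressed without stress and also responds to heat, rose by 2.41 ± 0.30 in shoots. In roots its ethanol libraries stood at 190 to 221 CPM and its citral libraries at 714 to 1026 (2.11 ± 0.15). HSP90.2 rose by 1.06 ± 0.22 and 0.98 ± 0.12, and HSP90.3 by 0.99 ± 0.20 and 0.69 ± 0.11. Counted as 1 feature, HSP90.2, HSP90.3 and HSP90.4 rose by 0.97 ± 0.20 in shoots and 0.82 ± 0.11 in roots. HSP70-2, the low neighbour of HSP70-1, rose by 1.38 ± 0.49 and 1.24 ± 0.24. HSP70-1, already the most abundant, rose by 0.33 ± 0.12 and 0.48 ± 0.06. In shoots the calls for HSP70-1 (adjusted p = 0.0383) and HSP70-2 (0.0432) were lost without any one of several libraries (citral replicate 2 or 3, or any ethanol replicate), and limma-trend called 4 of the 10 genes. The call for HSP70-2 was also lost with the shallow libraries left out (adjusted p = 0.0622), and that for HSP70-1 under the authors' factors (adjusted p = 0.114).

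At 3 and 6 h shoots and roots parted. In shoots 9 of 10 genes had risen at both hours and 0 had fallen, beside 19.7% of all loci higher and 31.8% lower at 3 h and 16.3% and 24.9% at 6 h. The median change of the 10 was 1.87 at 3 h and 2.3 at 6 h, against -0.165 and -0.122 over all loci. In roots 5 had risen and 1 had fallen at 3 h, beside 21.8% and 25.7% of loci, and 4 had risen and 2 had fallen at 6 h, beside 23.6% and 25.3%.

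**Figure D2:**
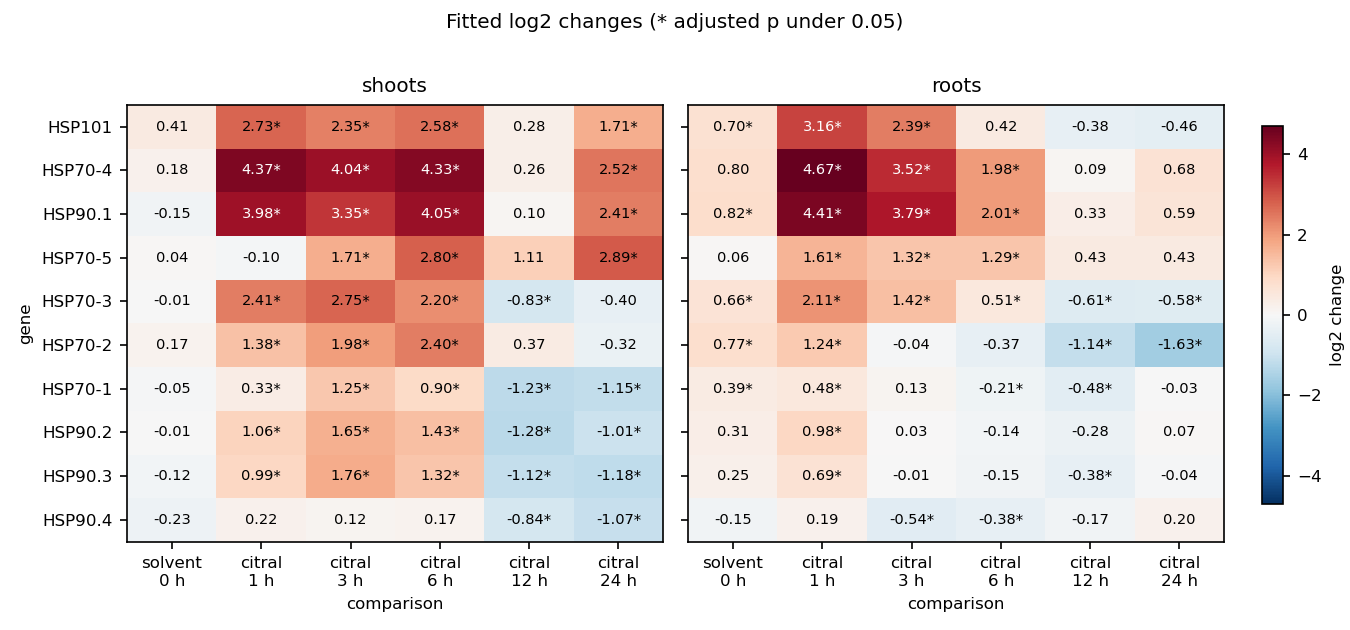
Fitted log2 changes of the 10 genes (rows) for ethanol against untreated at 0 h and for citral against ethanol at each hour (columns) in shoots and roots; stars mark adjusted p under 0.05. HSP70-4 and HSP90.1 carry the largest values, 4.67 and 4.41 in roots at 1 h, and the 4 bottom rows, HSP70-1, HSP90.2, HSP90.3 and HSP90.4, are negative in shoots at 12 and 24 h.

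In shoots HSP70-4, HSP90.1 and HSP101 were called higher at 3 and 6 h as at 1 h. HSP70-4 stood at 23.3, 26.9 and 11.3 CPM with ethanol and 358, 169 and 531 with citral at 3 h (4.04 ± 0.45, adjusted p = 4.08e-08). At 6 h it stood at 6.30, 27.0 and 22.4 with ethanol and 785, 265 and 217 with citral (4.33 ± 0.52, adjusted p = 2.61e-07). HSP90.1 changed by 3.35 ± 0.44 and 4.05 ± 0.52, and HSP101 by 2.35 ± 0.45 and 2.58 ± 0.50. The ethanol and citral groups did not overlap for these 3 genes at either hour.

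The treated shoots varied widely, and the same libraries stood high for several genes. For HSP101 citral replicates 1 to 3 stood at 59.6, 23.3 and 138 CPM at 3 h and at 204, 61.6 and 59.3 at 6 h. For HSP90.1 they stood at 202, 92.1 and 289 at 3 h and at 452, 204 and 137 at 6 h. Replicate 3 at 3 h and replicate 1 at 6 h were thus the highest for both genes, and for HSP70-4 and HSP70-5 as well.

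HSP70-5 rose in shoots only from 3 h by the test. It stood at 9.29, 8.18 and 6.46 CPM with ethanol and 20.7, 12.8 and 56.9 with citral at 3 h (1.71 ± 0.56, adjusted p = 0.0128). At 6 h it stood at 8.26, 7.28 and 6.28 against 157, 23.6 and 34.9 (2.80 ± 0.61, adjusted p = 0.000619). No citral library overlapped the ethanol libraries. Without citral replicate 3 the 3 h change was 1.06 with an adjusted p of 0.21.

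Of the other genes in shoots, HSP70-3 stood at 143, 182 and 130 CPM with ethanol and 1048, 763 and 1384 with citral at 3 h (2.75 ± 0.27, adjusted p = 3.20e-09), and it changed by 2.20 ± 0.29 at 6 h. HSP70-1 stood at 1169, 1296 and 1199 against 3097, 2649 and 3039 at 3 h (1.25 ± 0.10, adjusted p = 5.03e-12) and changed by 0.90 ± 0.11 at 6 h. HSP90.2 changed by 1.65 ± 0.19 and 1.43 ± 0.21, HSP90.3 by 1.76 ± 0.18 and 1.32 ± 0.20, and HSP70-2 by 1.98 ± 0.36 and 2.40 ± 0.40. Their citral libraries all lay above their ethanol libraries. HSP90.4 stood at 34.1 to 37.4 CPM with ethanol and 30.9 to 46.1 with citral at 3 h, overlapping ranges (0.12 ± 0.15), and changed by 0.17 ± 0.16 at 6 h. Taken as 1 feature, HSP90.2, HSP90.3 and HSP90.4 rose by 1.62 ± 0.17 at 3 h and 1.32 ± 0.19 at 6 h.

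In roots at 3 h the inducible genes were still raised, HSP90.1 by 3.79 ± 0.55, HSP70-4 by 3.52 ± 0.54, HSP101 by 2.39 ± 0.39 and HSP70-5 by 1.32 ± 0.34, together with HSP70-3 by 1.42 ± 0.21. The call for HSP70-5 was lost without ethanol replicate 2 (adjusted p = 0.056) or 3 (0.083), which leaves the shallow replicate 1 with 1 other. HSP70-1 (0.13 ± 0.09), HSP70-2 (-0.04 ± 0.36), HSP90.2 (0.03 ± 0.17) and HSP90.3 (-0.01 ± 0.15) did not pass, and quantile normalization gave HSP70-1 a fall to -0.48 (adjusted p = 0.000167). HSP90.4 fell, from 44.3, 42.6 and 44.2 CPM to 29.8, 26.4 and 32.9 (-0.54 ± 0.13, adjusted p = 0.000809), without overlap. Without ethanol replicate 3 its adjusted p was 0.053. The sum of HSP90.2, HSP90.3 and HSP90.4 changed by -0.01 ± 0.15 and did not pass (adjusted p = 0.949).

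At 6 h in roots the ethanol controls had themselves climbed. HSP70-4 stood at 39.6, 134 and 179 CPM with ethanol and 406, 535 and 469 with citral (1.98 ± 0.30, adjusted p = 4.45e-06). HSP90.1 changed by 2.01 ± 0.25, HSP70-5 by 1.29 ± 0.21 and HSP70-3 by 0.51 ± 0.15. HSP101 stood at 26.2, 46.8 and 51.5 with ethanol and 54.0, 63.2 and 61.7 with citral, separate ranges whose change of 0.42 ± 0.24 did not pass (adjusted p = 0.142). HSP90.4 fell by 0.38 ± 0.09 on the log2 scale and HSP70-1 by 0.21 ± 0.07, both with overlapping libraries. Summed, HSP90.2, HSP90.3 and HSP90.4 changed by -0.15 ± 0.11 and did not pass (adjusted p = 0.266). The call for HSP70-1 was lost under limma-trend, without library weights and without ethanol replicate 2 or 3. That for HSP70-3 was lost under quantile normalization (0.18, adjusted p = 0.32) and when only the compared groups were fitted (adjusted p = 0.06).

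By 12 h limma's test called no gene higher in either organ. In shoots 0 genes were called higher and 5 had fallen, beside 18.6% of all loci higher and 19% lower, with a median change of -0.364. In roots 0 were higher and 4 had fallen, beside 17.7% and 18.5%, with a median of -0.328. At an unadjusted p under 0.05 the number higher was 0 in both organs, and limma-trend called 1 higher in shoots with 0.1 CPM added and 0 with 0.5. For HSP70-4 the shoot libraries stood at 95.6, 47.7 and 154 CPM with ethanol and 83.4, 156 and 213 with citral, overlapping groups with a change of 0.26 ± 0.47. HSP90.1 (0.10 ± 0.47) and HSP101 (0.28 ± 0.53) in shoots also overlapped, and the intervals reach from -0.88 to 1.08 and from -0.80 to 1.37. HSP70-5 was 1.11 ± 0.81 higher and did not pass.

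HSP70-1, HSP70-3 and the 3 constitutive HSP90 genes were called lower with citral than with ethanol in shoots at 12 h. For all 5 the ethanol mean at 12 h was above that at 0 h. In ethanol shoots at 0 h and citral shoots at 12 h, mean CPM was 45.9 and 202 for HSP70-3 and 149 and 225 for HSP90.2. It was 96.7 and 178 for HSP90.3 and 1127 and 1168 for HSP70-1, while HSP90.4 was slightly lower at 12 h. Citral at 12 h against 0 h was not tested. HSP70-1 stood at 2638, 650 and 2887 CPM with ethanol and 1227, 1195 and 1083 with citral, the 650 being the shallow replicate 2 (-1.23 ± 0.11, adjusted p = 1.67e-10). HSP90.2 stood at 481, 119 and 641 against 177, 247 and 250 (-1.28 ± 0.21, adjusted p = 1.58e-05). HSP90.3 fell by 1.12 ± 0.20 on the log2 scale, HSP90.4 by 0.84 ± 0.18 and HSP70-3 by 0.83 ± 0.29. Counted together, HSP90.2, HSP90.3 and HSP90.4 changed by -1.20 ± 0.19 (adjusted p = 9.99e-06). Apart from the shallow library, every ethanol library was above every citral library for these 5 genes, and the count was still 5 with the shallow libraries left out. With ethanol replicate 1 or 3 left out, which leaves the shallow library and 1 other, 1 of the 10 genes passed, HSP70-1. HSP70-3 turned to 0.69 and 0.68 under limma-trend, which keeps the shallow library at full weight, and neither value passed. Its call was also lost without citral replicate 1 (adjusted p = 0.101) and under quantile normalization (0.0658).

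In roots at 12 h HSP70-1 stood at 1741, 1570 and 1609 CPM with ethanol and 1074, 1214 and 1174 with citral (-0.48 ± 0.07, adjusted p = 3.12e-07). HSP70-2 fell by 1.14 ± 0.24 on the log2 scale, HSP70-3 by 0.61 ± 0.17 and HSP90.3 by 0.38 ± 0.11, each without overlap. The summed HSP90.2, HSP90.3 and HSP90.4 changed by -0.31 ± 0.11 (adjusted p = 0.0327). The call for HSP90.3 was lost without citral replicate 3 (adjusted p = 0.091).

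**Figure D3:**
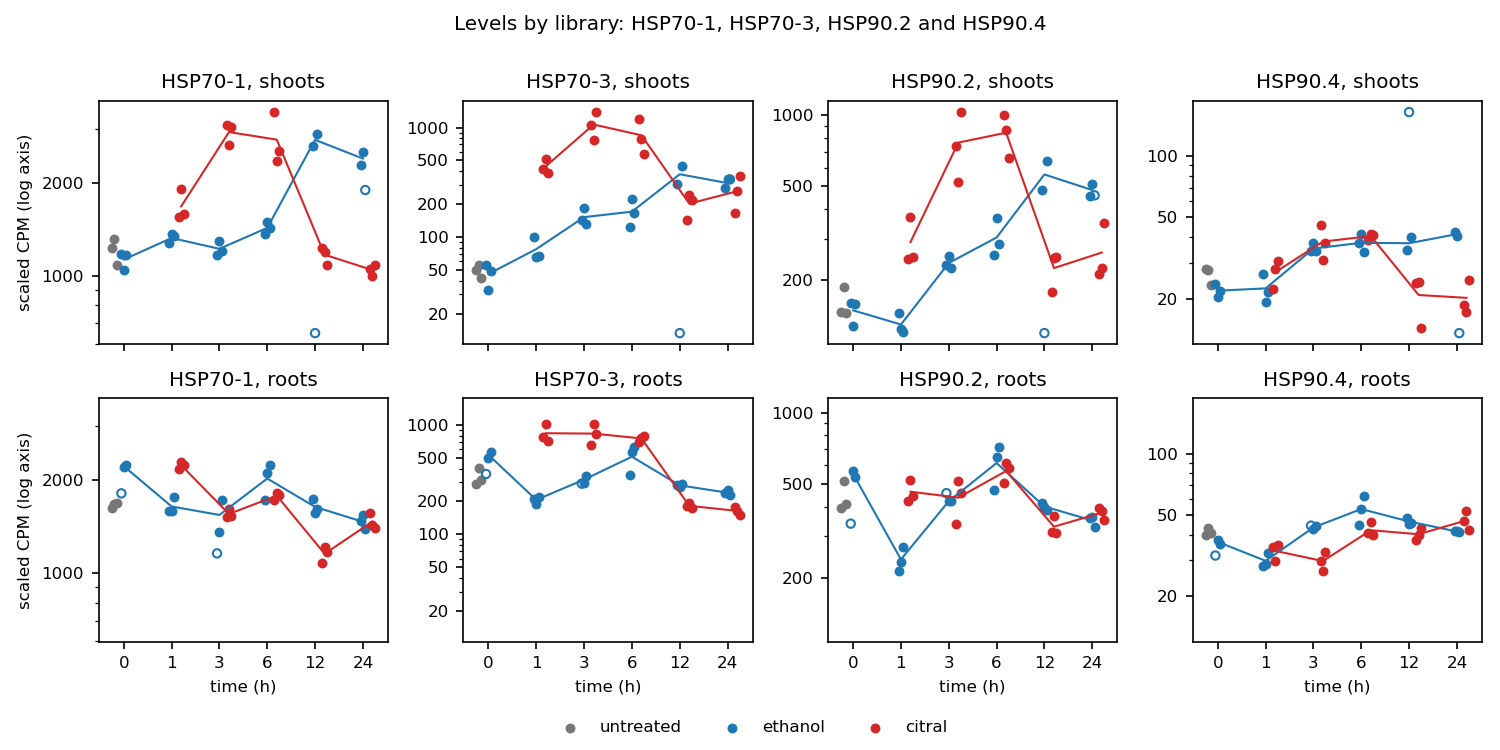
Levels of HSP70-1, HSP70-3, HSP90.2 and HSP90.4 in every library (scaled CPM, log axis) by hour in shoots (top) and roots (bottom), with open points for the 4 libraries under 0.5 M reads and lines through the means of the others. In shoots the citral line lies above the ethanol line at 3 and 6 h and below it at 12 and 24 h for HSP70-1, where ethanol libraries of 0.5 M or more reach 2638 and 2887 CPM at 12 h.

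At 24 h in shoots the inducible genes stood above the ethanol controls of that hour and the constitutive genes below them, while roots showed little. In shoots 4 had risen and 4 had fallen, beside 17% of all loci higher and 16.2% lower. In roots 0 were called higher and 2 had fallen, beside 19% and 19.7%, with 1 higher at an unadjusted p under 0.05 and 0 by limma-trend. HSP70-4 stood at 50.2, 61.3 and 50.8 CPM in ethanol shoots and at 186, 352 and 548 with citral (2.52 ± 0.56, adjusted p = 0.000970). HSP90.1 stood at 25.2, 24.2 and 23.7 against 66.9, 148 and 293 (2.41 ± 0.62, adjusted p = 0.00396). HSP101 stood at 18.7, 23.6 and 13.6 against 26.2, 79.4 and 125 (1.71 ± 0.63, adjusted p = 0.0377). HSP70-5 stood at 7.70, 9.0 and 10.2 against 14.6, 87.7 and 149 (2.89 ± 0.80, adjusted p = 0.00670). The groups were apart for all 4 genes, and in each citral replicate 1 was the lowest treated library and replicate 3 the highest.

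The 24 h rise in shoots rested on few controls. Without ethanol replicate 1, which leaves replicate 2 and the shallow replicate 3, 0 genes were higher and 3 were lower, with adjusted p of 0.074 for HSP70-4, 0.19 for HSP90.1, 0.3 for HSP70-5 and 0.4 for HSP101. Without ethanol replicate 2, 1 was higher and 4 were lower. The call for HSP101 was also lost without citral replicate 2 (adjusted p = 0.167) or 3 (0.146), and limma-trend called 2 higher and 1 lower. All 8 calls held with the shallow libraries left out.

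Of the genes that fell in shoots at 24 h, HSP70-1 stood at 2289, 2513 and 1897 CPM with ethanol and 1051, 995 and 1078 with citral (-1.15 ± 0.11, adjusted p = 9.25e-10). HSP90.2 fell by 1.01 ± 0.22 on the log2 scale, HSP90.3 by 1.18 ± 0.21 and HSP90.4 by 1.07 ± 0.23. The groups overlapped for HSP90.4 only, through the shallow ethanol library at 13.6. For HSP90.2, HSP90.3 and HSP90.4 summed, the change was -1.08 ± 0.19 in shoots and 0.03 ± 0.11 in roots, where it did not pass. In roots at 24 h HSP70-2 fell from 39.3, 37.2 and 44.2 to 12.2, 22.9 and 5.29 (-1.63 ± 0.31, adjusted p = 0.000107) and HSP70-3 by 0.58 ± 0.17. The call for HSP70-3 was lost without ethanol replicate 1 (adjusted p = 0.22) or 2 (0.27). HSP70-4 and HSP90.1 in roots were 0.68 ± 0.40 and 0.59 ± 0.39 higher, with every citral library above the ethanol libraries, and did not pass, whereas a fit of these groups alone called 5 genes, 2 higher and 3 lower.

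The ethanol controls also moved over time. Among the 6 ethanol times 8 of 10 genes changed in shoots, beside 88% of all loci, a share no higher than the background, and 10 of 10 in roots, beside 67.8%. In ethanol shoots HSP70-1 stood at 1429 ± 61.1 CPM at 6 h and 2762 ± 176 at 12 h (n = 3 and 2), HSP70-4 at 18.6 ± 10.9 and 125 ± 41.6, and HSP90.2 at 303 ± 57.8 and 561 ± 113. HSP101 (adjusted p = 0.0896) and HSP70-5 (0.832) were the genes that did not pass in shoots. In ethanol roots HSP70-4 went from 208 ± 1.77 CPM at 0 h to 23.3 ± 5.04 at 1 h, 118 ± 71.3 at 6 h and 42.4 ± 1.63 at 24 h. From 0 h to 1 h in ethanol roots HSP90.1 went from 98.4 ± 1.70 to 19.0 ± 3.13 and HSP101 from 54.2 ± 1.72 to 14.05 ± 1.775 (n = 2 and 3). The low values of HSP70-4, HSP90.1 and HSP101 in roots at 1 h are the base of their first citral changes. With citral at 1 h HSP90.1 stood at 348 ± 52.4 in roots and HSP101 at 122 ± 25.7. The change with citral itself differed among the 5 hours for 9 of 10 genes in shoots, beside 52.9% of all loci, and for 10 of 10 in roots, beside 59.5%. HSP70-5 was the exception in shoots (adjusted p = 0.107), and without library weights or under limma-trend the shoot count was 5 and 4.

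Summed over the 10 genes, group means in shoots went from 1682 CPM with ethanol to 2968 with citral at 1 h, from 1888 to 6102 at 3 h and from 2245 to 6070 at 6 h. At 12 h the sum was 4392 with ethanol and 2112 with citral, and at 24 h 3753 and 2477. In roots the sum was 2406 against 4928 at 1 h, 2776 against 4093 at 3 h, 3993 against 4493 at 6 h, 2894 against 2150 at 12 h and 2515 against 2483 at 24 h.

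Whether the response differed between organs was tested directly. At 1 h 0 of 10 genes differed in limma's test, beside 16.7% of all loci, 1 had an unadjusted p under 0.05 (HSP70-5), and limma-trend called 0. At 3 h 6 differed, beside 25.7%, and at 6 h 9 differed, beside 27.9%. In all of these the log2 change in shoots lay above that in roots, by 2.74 for HSP70-2, 2.28 for HSP70-4, 2.11 for HSP101 and 1.98 for HSP90.1 at 6 h. For HSP90.4 the difference went with a fall in roots and no call in shoots at both hours. At 12 h 5 differed, beside 23.7%, of which HSP70-2 was higher in shoots (1.53) and HSP70-1, HSP90.2, HSP90.3 and HSP90.4 lower (-0.75, -0.999, -0.75 and -0.67). At 24 h 7 differed, beside 29.9%: HSP101, HSP70-4 and HSP70-5 were higher in shoots by 2.12, 1.81 and 2.45, and HSP70-1 and the 3 constitutive HSP90 genes lower. HSP90.1 at 24 h did not pass.

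**Figure D4:**
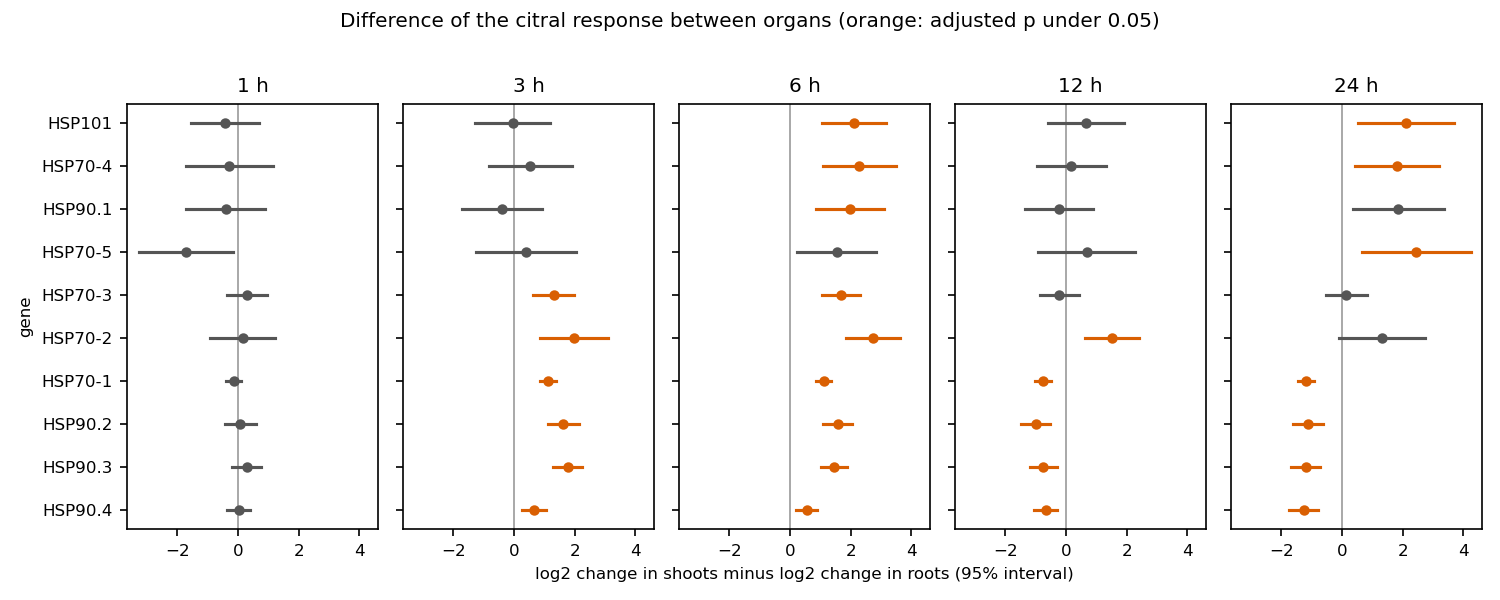
Difference of the citral response between organs, shown as log2 change in shoots minus log2 change in roots with its 95% interval for each gene (rows) and hour (panels); orange marks adjusted p under 0.05. At 6 h all 10 points lie above 0, and at 24 h the inducible genes lie above 0 and HSP70-1 and the constitutive HSP90 genes below it.

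Over the 24 group means, the profiles fell into loose sets, given here as Pearson correlations of log2 values without a test, over groups of unequal depth. HSP101 resembled HSP90.1 most (0.953), then FES1A (0.951), a nucleotide exchange factor of cytosolic HSP70, HSP70-4 (0.944), AT5G51440 (0.918) and AT5G35320 (0.917), among 13821 loci compared. HSP90.2 resembled HSP90.3 most (0.989), with which it shares sequence, then the HSP90-binding immunophilin ROF1 (0.913), TPR10 (0.91), HSP70-15 (0.899) and HSP70-3 (0.878). HSP70-1 resembled HSP90.2 most (0.817), then its J-domain partner ATJ3 (0.811), HSP70-15 (0.788), HSP90.3 (0.782) and AT5G44320 (0.761). HSP90.4 stood apart from the inducible genes, at 0.105 with HSP101 and -0.199 with HSP70-5, against 0.762 with HSP90.3.

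Co-chaperones load and release the clients of HSP70 and HSP90. Of 20 tested, 11 rose in shoots at 1 h, 12 at 3 h and 15 at 6 h, beside 10.7%, 19.7% and 16.3% of all loci. In roots 13, 12 and 10 rose, beside 21.7%, 21.8% and 23.6%. In both organs 0 to 3 fell at these hours. Their medians ran from 0.279 to 0.964. In roots at 1 h the HSP90-binding immunophilin ROF2 rose by 4.36 ± 0.13, HOP3, which bridges HSP70 and HSP90, by 3.75 ± 0.15 and FES1A by 3.50 ± 0.15. In shoots at 6 h HOP3 rose by 2.57 ± 0.46, FES1A by 2.42 ± 0.36 and ROF2 by 2.25 ± 0.52. At 12 h 3 rose and 6 fell in shoots, beside 18.6% and 19% of all loci, and 3 and 4 in roots, beside 17.7% and 18.5%. At 24 h 6 rose and 6 fell in shoots, beside 17% and 16.2%, and 4 and 2 in roots, beside 19% and 19.7%. With ethanol against untreated at 0 h 8 rose and 0 fell in roots, beside 26.6% called either way. In shoots 0 rose and 1 fell, beside 22.2%.

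Heat shock factors include those that switch these genes on. The list held factors of classes A, B and C alike, so its counts are not counts of activators. Of 20 heat shock factor genes that the data hold, 18 were tested in shoots and 19 in roots. In shoots 8 rose at 1 h, 11 at 3 h and 5 at 6 h, beside 10.7%, 19.7% and 16.3% of all loci. In roots 14, 13 and 8 rose, beside 21.7%, 21.8% and 23.6%. HSFA2, the heat-inducible amplifier of the heat response, rose by 4.38 ± 0.67 in shoots at 3 h and by 3.83 ± 0.30 in roots at 1 h, and in roots at 6 h it stood at 0.22 and did not pass. HSFA6B rose by 4.68 ± 0.26 in roots at 1 h. Its call in shoots at 3 h rests on 0.5 to 3.6 reads per library with citral and 0.5 to 3.3 with ethanol, too few for a fold, 0.5 standing for the floor of the table. HSFA4A rose by 2.34 ± 0.27 in shoots at 3 h and HSFC1 by 2.47 ± 0.14 in roots at 1 h. At 12 h 5 rose in shoots, where 18.6% of all loci were higher, and 3 in roots, where 17.7% were. At 24 h 6 rose in shoots and 4 in roots, beside 17% and 19% of all loci, so the root counts are near the background. At these hours 0 or 1 fell.

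Genes that act with HSP101 in thermotolerance are mostly small heat shock proteins, which keep aggregates accessible. Of 9, which include HSFA2, 3 rose in shoots at 1 h, 7 at 3 h, 8 at 6 h, 5 at 12 h and 8 at 24 h. The shares of all loci called higher were 10.7%, 19.7%, 16.3%, 18.6% and 17%. In roots 9, 8, 8, 2 and 5 rose at these hours, beside 21.7%, 21.8%, 23.6%, 17.7% and 19%. In roots at 1 h HSP17.6II rose by 6.27 ± 0.47, HSP17.6A by 6.02 ± 0.35 and HSP17.4 by 5.97 ± 0.33. In shoots at 6 h HSP17.4 rose by 5.91 ± 1.38, HSP17.6C by 5.61 ± 1.35 and HSP17.6II by 5.49 ± 1.31. These shoot values rest on few reads: HSP17.4 had 1.8, 2.7 and 3.6 with ethanol and 331, 15.4 and 39.0 with citral, where replicate 1 stood highest as it did for HSP101. The list median was 4.23 in shoots at 12 h, where HSP101 itself stood at 0.28, though only 5 of the 9 were called. The reads behind this median are not given, and the shallow ethanol replicate 2 of that hour had 73.9% of all loci at the floor. At no hour did any of the 9 fall.

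The same families have members in the organelles. Of 12 such genes, 2 rose and 3 fell in shoots at 1 h, beside 10.7% of all loci higher and 11.2% lower. At 3 h 7 rose and at 6 h 11, beside 19.7% and 16.3%, and 0 fell. At 12 h 1 rose and 1 fell, beside 18.6% and 19%, and at 24 h 1 rose and 8 fell, beside 17% and 16.2%. In roots 8 rose and 2 fell at 1 h, beside 21.7% and 21.8% of all loci. At 3 h 4 rose and 3 fell, beside 21.8% and 25.7%, counts near the background. At 6 h 6 rose and 3 fell, beside 23.6% and 25.3%. At 12 h 4 rose and 1 fell, beside 17.7% and 18.5%, and at 24 h 7 rose and 0 fell, beside 19% and 19.7%. BIP3, an inducible HSP70 of the endoplasmic reticulum, rose by 3.23 ± 0.90 in shoots at 6 h (16.0, 9.9 and 13.0 reads with citral, 7.3, 1.8 and 3.6 in the deeper ethanol libraries). In roots at 1 h its change of 2.37 ± 0.86 rests on 2.1 to 8.2 reads with citral and 3.3 to 8.5 with ethanol. The mitochondrial HSP70 gene mtHSC70-2 rose by 1.72 ± 0.22 and BIP2 by 1.37 ± 0.22 in shoots at 6 h, and the mitochondrial disaggregase gene CLPB4 by 1.36 ± 0.12 and cpHSC70-2 of the plastid by 1.16 ± 0.11 in roots at 1 h. HSP90.7, the HSP90 of the endoplasmic reticulum, fell by 0.59 on the log2 scale in shoots and by 0.32 in roots at 1 h. CLPB3, the plastid relative of HSP101, did not pass in either organ at 1 h (-0.02 in shoots and 0.23 in roots) and rose at 6 h by 0.41 in shoots and 0.63 in roots. These lists were drawn up with results of these data known, and their counts describe them beside the shares of all loci given above.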

How the data were processed

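The deposited values, for 22122 loci in 72 libraries, are whole numbers of at least 1 and are treated as a score. Their file name states a TMM scaling, and the submitters' processing notes name TAIR10. Aligner, counter and strand setting: not given in the sources used here. Per the labels' protocols, RNA was column-purified and libraries were made with a TruSeq kit. Each column was a grid of whole reads times 1 factor (0.666 to 1.31), rounded, with a floor of 1. All values up to 150 lay on it, which is informative only where the factor is above 1. Dividing by that factor gave reads, with 0.5 read for a value at the floor. Recovered reads ranged from 0.184 to 20.6 M per library, and intervals cover counting error and replicate spread, not amplification.

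TMM-type factors were computed here (30% of ratios and 5% of abundances trimmed, loci averaging 10 CPM). Loci with 1 CPM in 3 libraries were kept, 19772 in shoots and 20028 in roots. limma 3.58.1 (R 4.3.3) voom with quality weights was fitted to 12 group means per organ over 36 libraries, and to all 72 libraries (21076 loci) for organ contrasts, with Benjamini-Hochberg adjustment over all loci. All tests are two-sided. The fit was checked on simulated data. Alternatives were the authors' factors, quantile normalization, no weights, limma-trend with 0.5 or 0.1 CPM added, other filters, fits without shallow libraries, of the compared groups alone, or leaving out 1 library. Sequences and loci came from TAIR10.1 (RefSeq), read with Python 3.11.15. The identity alignments used Biopython 1.88.

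The members and gene lists were chosen with earlier results of these data known. Named genes are all 10 members, up to 3 called genes per list and organ with the largest change at its hour with most calls, 6 fixed examples, and the 5 most alike profiles of HSP101, HSP70-1 and HSP90.2. LHY, CCA1 and the overlapping genes were added after their values were seen.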

Additional observations from a re-analysis of the deposited data

Results flagged for a closer look

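In 27 of 50 gene and hour combinations the test found a different citral response in the 2 organs, given as the log2 change in shoots minus that in roots, with limma's adjusted p under 0.05. At 3 h the difference was 1.11 for HSP70-1, 1.97 for HSP70-2, 1.31 for HSP70-3, 1.63 for HSP90.2, 1.77 for HSP90.3 and 0.65 for HSP90.4. At 6 h it was 2.11 for HSP101, 1.11 for HSP70-1, 2.74 for HSP70-2, 1.69 for HSP70-3, 2.28 for HSP70-4, 1.98 for HSP90.1, 1.57 for HSP90.2, 1.46 for HSP90.3 and 0.55 for HSP90.4. At 12 h it was -0.75 for HSP70-1, 1.53 for HSP70-2, -0.999 for HSP90.2, -0.75 for HSP90.3 and -0.67 for HSP90.4. At 24 h it was 2.12 for HSP101, -1.18 for HSP70-1, 1.81 for HSP70-4, 2.45 for HSP70-5, -1.11 for HSP90.2, -1.19 for HSP90.3 and -1.26 for HSP90.4. HSP90.4 at 3 and 6 h did not rise by the test in shoots and fell in roots. The sum of HSP90.2, HSP90.3 and HSP90.4 did not pass in roots at these hours. At 24 h the adjusted p was 0.0354 for HSP101, 0.0402 for HSP70-4 and 0.0319 for HSP70-5, and without the shallow libraries 5 differences were called at that hour.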

How the results depend on the processing

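Of 1800 recomputed values of single genes, 1666 stayed on the same side of the threshold, 112 lost a call, 19 gained one and 3 turned, and 41 of 71 calls held under every alternative. Those that turned were HSP70-1 in roots at 3 h under quantile normalization (-0.48) and HSP70-3 in shoots at 12 h under limma-trend (0.69 and 0.68). Without a call under either setting, 57 values changed sign. With limma-trend the calls numbered 4 and 4 in shoots at 1 h (8 as reported), 2 and 1 at 12 h (5), 3 and 3 at 24 h (8), and 1 and 1 in roots at 0 h (5), with 0.1 and 0.5 CPM added. With 0.5 CPM, 5 shoot genes changed among ethanol times (8), 4 had a citral effect that differed among hours (9), and organ differences numbered 3 at 3 h (6), 5 at 6 h (9), 2 at 12 h (5) and 2 at 24 h (7). Without library weights there were 5 calls in shoots at 1 h, 3 at 12 h and 4 at 24 h, 5 effects that differed among hours, and 1 and 3 organ differences at 12 and 24 h. Quantile normalization left 3 organ differences at 12 h, and a fit of the compared groups alone gave 5 calls in roots at 24 h (2). The cause of these differences was not tested.

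Leaving out 1 library gave 1 to 5 calls in shoots at 12 h, 3 to 8 in shoots at 24 h, 1 to 2 in roots at 24 h and 0 to 8 in roots at 0 h, the lone sample of a group being assumed to vary like the others where one is left. In shoots at 1, 3 and 6 h it gave 6 to 8, 8 to 9 and 9, and in roots 9 at 1 h. Quantile normalization moved the median of all loci by 0.101 in shoots at 3 h and 0.105 at 6 h. The authors' factors moved the share of higher calls in shoots at 1 h from 48.9% to 35.1%, in roots at 1 h from 49.9% to 38.7% and in roots at 24 h from 49.1% to 39%. Under these settings the counts of members at these hours were 9 and 9, 7, 9 and 2. No paired analysis was possible because replicate numbers were given in accession order only. HSP70-5 in citral shoots rests on as few as 18.4 reads, which limits its interval at 1 h.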
